A study of Mus musculus with 4 samples.

Results

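Dentate granule neurons are the principal excitatory neurons of the dentate gyrus. They receive input from the entorhinal cortex and send mossy fibres to the pyramidal neurons of CA3. Their gene expression changes along the long axis of the hippocampus, and its dorsal part is best known for spatial memory. Prox1, a homeobox factor, maintains granule cell identity, and Jun and other immediate early genes report recent activity in these cells.

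The nuclei described here are dorsal-type dentate granule nuclei from single-nucleus RNA sequencing of adult mouse hippocampus. Members were chosen by measured values of these same libraries. A barcode was a member when it held at least 5000 unique molecular identifiers (UMIs, each counting 1 RNA molecule) and at least 4 of the 6 granule markers Prox1, Glis3, Dsp, Rfx3, Il1r1 and Npnt. It also held at most 1 UMI of Gad1 and Gad2 together, at most 2 of Dcx, and at most 1 of the ventral markers Trhr, Ano2, Trabd2b, Nek10 and Lgr6 together. The rule found 3792 members among 32572 barcodes of at least 5000 UMIs. Control mice had the genotype Kat6a-f/f, with loxP sites around the gene of the histone acetyltransferase KAT6A, and gave 2 libraries. Kat6a-cKO mice carried NEX-cre together with Kat6a-f/f and also gave 2 libraries. Kat6a-f/f was thus shared by both groups, and the controls carried no Cre allele. NEX-cre is expressed from the Neurod6 locus, which is most active in pyramidal neurons, and the share of granule neurons that recombined was not measured here. The labels give no exact age, sex, batch or litter, and nothing states that each library came from a separate animal, so p-values measure only the spread between these libraries.

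The libraries held 171323466 to 186897245 counts. The members summed to 17544890 and 10181221 UMIs in the Control and 9658677 and 8377606 in the Kat6a-cKO libraries, with medians of 10529 to 11651.5 UMIs and 3314 to 3533.5 genes per nucleus. Mitochondrial RNA made up 0.121% to 0.170% of the members' UMIs. Scrublet, a doublet caller, marked 24 to 54 of the members of a library and 3.05% to 3.77% of all barcodes tested, and they were kept. At most 10 members of a library shared a barcode sequence with a counted barcode of another library.

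The first Control library stood apart from the other 3 before any test. The members numbered 1376 and 861 in the Control and 837 and 718 in the Kat6a-cKO libraries. They were 16.7% and 10.8% of the barcodes of at least 5000 UMIs in the Control libraries, against 9.91% and 9.08% in the Kat6a-cKO libraries. The mean share was 13.7% ± 4.13 (SD, n = 2) in Control against 9.50% ± 0.593 (SD, n = 2) in Kat6a-cKO. An exact two-sided permutation test gave p = 0.33, the smallest p that 2 against 2 libraries allow. Without the first Control library the difference was -1.32 percentage points, against -4.24 with it.

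Granule nuclei with at least 5 UMIs of the ventral markers are called ventral-type here. The ratio of dorsal-type to ventral-type nuclei was 3.20 and 1.19 in the Control and 1.23 and 1.29 in the Kat6a-cKO libraries. Kat6a-cKO lay between the Control libraries, and the exact two-sided permutation p was 1. Without the first Control library the difference of the ratio turned from -0.934 to 0.069. One of the rule's own genes, the R-spondin receptor gene Lgr6, set that library apart too. Its level in the dorsal-type nuclei was 2.51 and 15.4 CPM (counts scaled to a common total per library) in the Control and 17.1 and 14.8 CPM in the Kat6a-cKO libraries. In ventral-type nuclei it was 17.7 CPM in the first Control library and 85.4 to 96.3 CPM in the other 3. With Lgr6 left out of the rule, which was tried after seeing this, the members were 17.3% and 14.4% of barcodes in the Control and 13.3% and 12.2% in the Kat6a-cKO libraries. The ratio was then 3.47 and 2.19 in the Control and 2.29 and 2.37 in the Kat6a-cKO libraries.

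**Figure D1:**
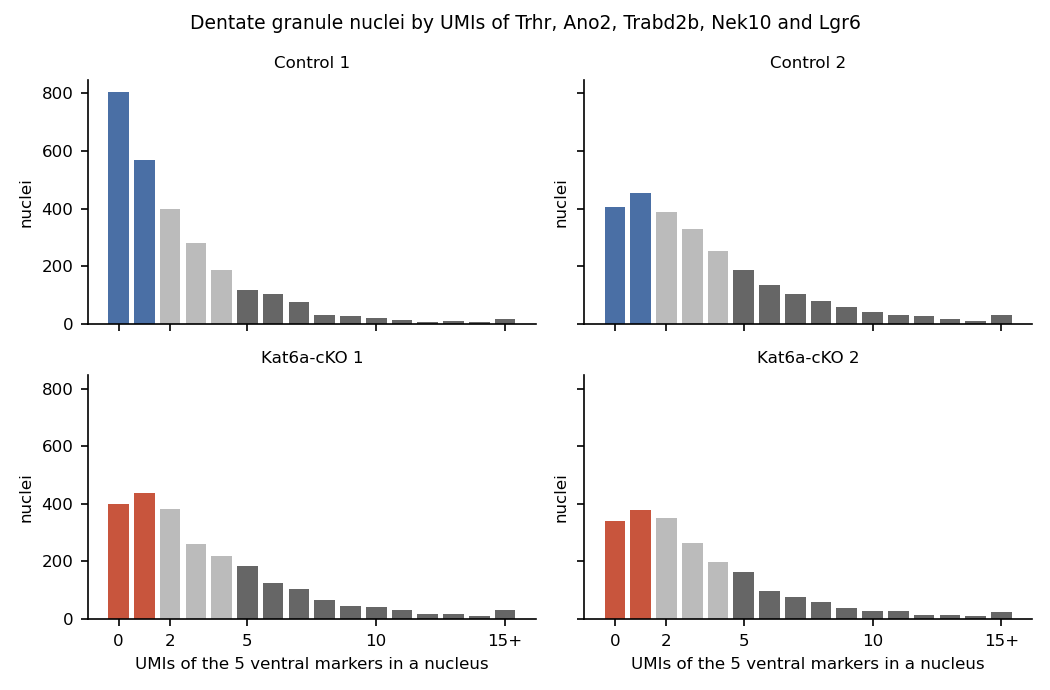
Number of dentate granule nuclei (y axis) by their UMIs of the 5 ventral markers (x axis) in each library. Coloured bars are the dorsal-type members (0 or 1 UMI), light grey bars the nuclei of 2 to 4 UMIs and dark grey bars the ventral-type nuclei. The counts run on without a gap at the limit of the rule, and the first Control library holds 806 nuclei at 0 against 340 to 407 in the other 3.

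The counts ran on across the limit of the rule. In the first Control library 806 members had 0 and 570 had 1 ventral UMI, and 398 nuclei just outside had 2. The other 3 libraries held 340 to 407 members at 0, 378 to 454 at 1 and 351 to 389 nuclei at 2. On the marker side, 342 to 632 members of a library met the minimum of 4 markers, and 409 to 580 nuclei just outside showed 3. The members were shallower than the ventral-type nuclei, whose medians were 13849 to 15676 UMIs.

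The granule markers chose the members, so their levels are a description. Prox1 stood at 239 and 245 CPM in the Control and 222 and 227 CPM in the Kat6a-cKO libraries, and at 234, 261, 218 and 238 CPM in the ventral-type nuclei of the same libraries. CA1 pyramidal nuclei had 0.0841 to 0.107 CPM of Prox1 and CA3 pyramidal nuclei 2.55 to 2.80 CPM. Among the members, 91.3% to 93.3% had a UMI of Prox1, against 0.147% to 0.181% of CA1 and 4.48% to 6.51% of CA3 nuclei, which were deeper. The rules for CA1 and CA3 nuclei allowed at most 1 and 2 granule markers, so their low Prox1 is partly set by those rules. The transcription factor genes Glis3 (718 to 800 CPM) and Rfx3 (2435 to 2566 CPM), the desmosome gene Dsp (66.0 to 73.2 CPM), the interleukin receptor gene Il1r1 (89.4 to 101 CPM) and the matrix ligand gene Npnt (85.4 to 88.8 CPM) varied little among the 4 libraries.

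The label was set beside a list of 16 granule genes known to differ along the axis, none of them in the rule. The list does not record the pole of each gene, so it shows how far the classes separate and does not check the direction of the label. In all 4 libraries 5 were higher in dorsal-type nuclei (Spata13, Gsg1l, Pcp4, Cyp7b1 and Lct) and 4 in ventral-type nuclei (Nr2f2, Stra6, Tspan18 and Efnb2), and 7 had no single direction. For 14 of the 16 the log2 ratio of the levels was under 0.5 in size, so most of the list barely separated the classes. The other 2, Spata13 and Gsg1l, were higher in dorsal-type nuclei. Spata13, a guanine exchange factor gene, stood at 54.2, 57.9, 44.4 and 50.4 CPM in the 4 libraries, against 21.2 to 25.1 CPM in ventral-type nuclei. Gsg1l, an auxiliary subunit of AMPA receptors, stood at 38.9 to 46.0 CPM against 20.6 to 22.0 CPM. Since both classes come from 1 cut of the same nuclei, these contrasts carry no test.

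The largest ratio of levels on the dorsal side was that of Rgs6, a regulator of G protein signalling, at 90.3 and 111 CPM in the Control and 121 and 108 CPM in the Kat6a-cKO libraries, a log2 ratio of 1.30 over ventral-type nuclei. Mir670hg (1.22), Clmp (1.05), Sorcs3 (1.03), Zfp521 (1.00), Mapk4 (0.93), Parp8 (0.93) and Mertk (0.92) followed in log2 ratio. On the ventral side the kinase gene Stk32b had a log2 ratio of -1.67, followed by Nhs (-1.56), Tshz2 (-1.52), Col23a1 (-1.47), the sodium channel gene Scn9a (-1.33), Pdzrn4 (-1.21), Cobll1 (-1.17), Zfp423 (-1.06), the retinoic acid receptor gene Rarb (-1.03) and Phactr2 (-1.01). These ratios use mean CPM with 1 CPM added, and the rule's genes and genes named Gm, Rik, AC or the like were left out. In all, 6026 genes had at least 20 CPM in the higher class. Of those not left out, 6 were over 2-fold higher in dorsal-type and 10 in ventral-type nuclei, with the same direction in all 4 libraries.

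Markers of other cell types were measured in the members as sums of lists. The 5 microglia markers summed to 8.59 to 14.8 CPM against 1403 to 1961 CPM in barcodes of 10 to 100 UMIs, which hold far too little RNA for a counted nucleus. The 5 endothelial markers summed to 5.25 to 12.1 CPM, with Cldn5 under 1 CPM in every library. The 5 choroid plexus markers summed to 34.8 to 75.3 CPM against 5647 to 7123 CPM in those barcodes. The oligodendrocyte list summed to 417 to 470 CPM against 1635 to 1814 CPM. The astrocyte list (1216 to 1367 CPM) and the list of oligodendrocyte precursors (926 to 1051 CPM) were higher in the members than in those barcodes, mostly through Slc4a4 and Tnr. CA3 pyramidal markers stood at 528 and 572 CPM in the Control and 642 and 617 CPM in the Kat6a-cKO libraries for 6 genes. A minority of members carried many of them, 23 and 16 nuclei of over 20 such UMIs in the Control and 20 and 19 in the Kat6a-cKO libraries. These were 1.67% and 1.86% of the Control and 2.39% and 2.65% of the Kat6a-cKO members.

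Deletion of Kat6a was the study's manipulation, and its transcript did not pass the test. Kat6a stood at 97.4 and 96.7 CPM in the dorsal-type nuclei of Control and 94.6 and 88.0 CPM in those of Kat6a-cKO, a log2 fold change of -0.07 (SE 0.08, adjusted p = 0.87). The counts are per gene, and which exons the deletion removes is not given in the sources used here, so this level does not check the deletion. The deposited gene list has an entry for cre. It had 0 and 0 UMIs in the Control members and 2 and 4 in the Kat6a-cKO members, against 48 and 60 in Kat6a-cKO CA3 nuclei and 0 in those of Control. Among the classes summed, cre was found only in the libraries labelled Kat6a-cKO, and 1 UMI of it lay in the barcodes of 10 to 100 UMIs of the second Control library.

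Near the Neurod6 locus 2 transcripts rose. Neurod6 itself, a neuronal basic helix-loop-helix factor gene, stood at 13.9 and 18.2 CPM in the Control and 8.39 and 8.24 CPM in the Kat6a-cKO libraries, with a log2 fold change of -0.91 (SE 0.17) that missed the threshold at adjusted p = 0.0504. Gm3279, a long noncoding RNA 3.31 kb from Neurod6 on chromosome 6 (55684571 to 55694574, GRCm38), had 4 and 2 UMIs in the Control and 28 and 22 in the Kat6a-cKO libraries (log2 fold change 3.63, SE 0.46, adjusted p = 0.0116). In Kat6a-cKO 75.0% and 86.4% of its UMIs lay in 10 nuclei. It missed the threshold without members rich in CA3 markers (3.18, adjusted p = 0.072) and after subtraction of free RNA (5.59, adjusted p = 0.141). 6430584L05Rik, a long noncoding RNA 266 kb from Neurod6 on the same chromosome, stood at 5.53 and 5.60 CPM in the Control and 13.7 and 14.9 CPM in the Kat6a-cKO libraries (log2 fold change 1.38, SE 0.17, adjusted p = 0.0105). The groups did not overlap for any of the 3, as in 39.3% of all genes. Both noncoding RNAs were picked after their values were seen, for their position. The changes were not particular to dorsal-type nuclei. Gm3279 had log2 fold changes of 3.55 in ventral-type, 4.36 in CA1 and 4.78 in CA3 nuclei, and passed in CA1 and CA3. 6430584L05Rik had 1.55 in ventral-type nuclei, where it passed, and 0.52 in CA3. Neurod6 had -0.83 in ventral-type, -0.70 in CA1 and -0.50 in CA3 nuclei, none of which passed. Gm3279 was far higher in CA3 nuclei, at 40.9 and 39.5 CPM in Kat6a-cKO, whereas 6430584L05Rik was higher in granule nuclei than in CA3, where Kat6a-cKO had 1.28 and 0.925 CPM.

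Across all genes, 64 of 13983 tested differed between the genotypes in dorsal-type granule nuclei at an adjusted p under 0.05, which is 0.458%. The 10 higher genes were 0.0715% and the 54 lower genes 0.386% of those tested. The median log2 fold change over all genes was 0.00, 39.3% of all genes had groups that did not overlap, and 9.53% had an unadjusted p under 0.05. Most of the lower genes encode ribosomal proteins (24) or subunits and factors of oxidative phosphorylation (12), and 1 was the mitochondrial ribosomal RNA mt-Rnr2. The number of calls depended strongly on the settings. It was 172 without the first and 102 without the second Control library, and 184 without the first and 109 without the second Kat6a-cKO library. It was 18 without nuclei marked as doublets, 6 without the members rich in CA3 markers and 1 after an estimate of free RNA was subtracted. The direction of the calls depended on the settings too. With 0 UMIs of Gad1, Gad2, Dcx and the ventral markers, 34 genes were higher and 30 lower. Of 63 reported calls tested there, 28 were still called.

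**Figure D2:**
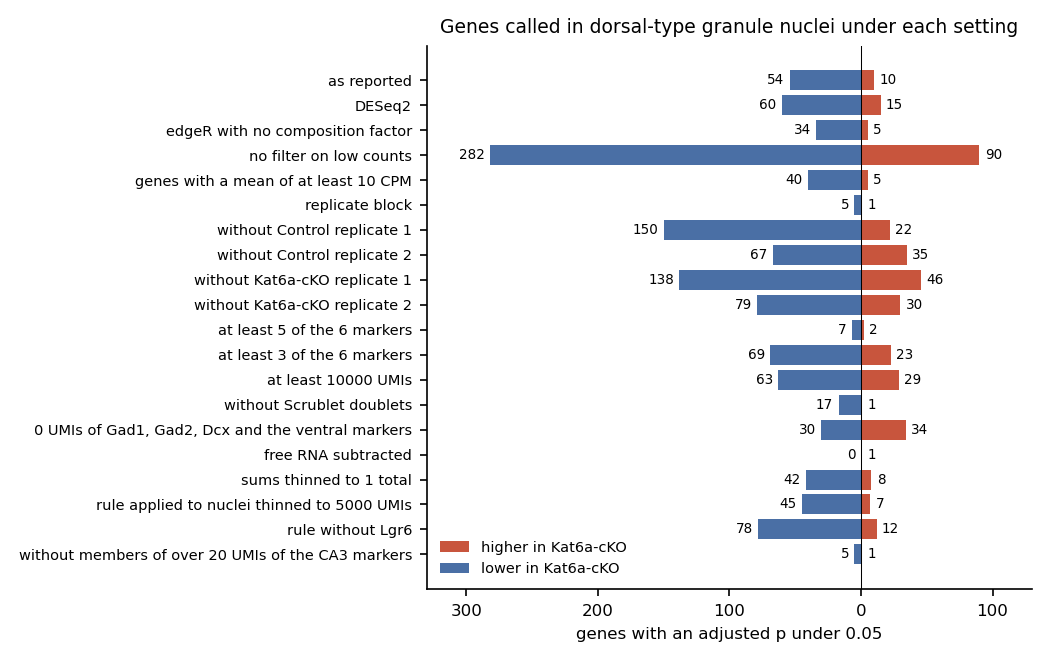
Genes called in dorsal-type dentate granule nuclei (x axis, number of genes with an adjusted p under 0.05) under each setting (y axis), with lower genes to the left and higher genes to the right of 0. The top bar is the reported result with 54 lower and 10 higher genes. The totals run from 1 after subtraction of free RNA to 372 with no filter on low counts.

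Ribosomal protein genes were the group with the most calls. In the list of 49 such genes, 18 fell and none rose, against 0.386% of all genes lower, and the list's median log2 fold change was -0.52 against 0.00 over all genes. By name, 24 of 82 tested fell, the median was -0.50, and 76 had a negative sign. Rpl37, of the large ribosomal subunit, had 49.5 and 51.3 CPM in the Control and 24.5 and 25.4 CPM in the Kat6a-cKO libraries. The Kat6a-cKO libraries were both far below the Control libraries, at a log2 fold change of -0.99 (SE 0.10, adjusted p = 0.00369), and Rpl37 passed the threshold in all 18 alternatives that tested it. After subtraction of free RNA it could not be tested.

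Rps21, of the small subunit, fell from 86.3 and 99.0 CPM in the Control libraries to 53.3 and 50.4 CPM (log2 fold change -0.81, SE 0.09, adjusted p = 0.0061). Rpl38 had 31.2 and 31.0 CPM in the Control and 17.4 and 16.5 CPM in the Kat6a-cKO libraries (log2 fold change -0.86, SE 0.12). In Rpl34 the Kat6a-cKO libraries differed from each other, at 14.1 and 22.0 CPM against 37.6 and 38.4 CPM in Control (log2 fold change -1.07, SE 0.16). Rplp1 (-0.59), Rpl23 (-0.69), Rps29 (-0.76) and Rpl30 (-0.83) fell as well, with no overlap between the groups, as in 39.3% of all genes. Of 16 lower ribosomal protein genes with a promoter sequence, 5 carry the letters CCGGAAG close to their first listed start site. Rpl34 and Rpl23 do not. The promoters of 3 of the 5 are shown because the genes moved together and carry these letters. Each runs 5′ to 3′ on the gene's strand from 70 bases before to 20 bases after the start given by RefSeq (GRCm38.p6), with CCGGAAG, the core bound by ETS factors, in capitals.
Rpl37 (chr15:5116543-5116632, plus strand): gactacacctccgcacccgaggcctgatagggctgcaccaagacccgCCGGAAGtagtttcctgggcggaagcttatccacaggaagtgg
Rpl38 (chr11:114668510-114668599, plus strand): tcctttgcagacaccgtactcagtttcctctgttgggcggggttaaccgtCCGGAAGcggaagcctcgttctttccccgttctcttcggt
Rps21 (chr2:180257309-180257398, plus strand): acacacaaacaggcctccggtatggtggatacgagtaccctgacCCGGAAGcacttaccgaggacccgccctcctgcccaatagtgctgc

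CCGGAAG was searched on both strands in windows from 250 bases before to 50 bases after each start. It was in 8.86% of all 32851 windows, in 16.1% of the windows of all genes tested, in 39.1% of the 23 windows of the lower ribosomal protein genes and in 36.1% of the 72 windows of the ribosomal protein genes tested. The share in the lower genes was thus close to that in their whole family. A match describes the sequence and is not evidence of a bound factor.

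The same genes were measured in the other classes. Each class was fitted on its own, from the same 4 libraries, so the values are not independent. Of ribosomal protein genes 24 of 82 passed as lower in dorsal-type, 2 of 81 in ventral-type, 1 of 81 in CA1 and 0 of 82 in CA3 nuclei by edgeR. Calls over all genes were few in those classes as well, with 2 of 13844 lower in ventral-type (0.0144%), 2 of 14064 in CA1 (0.0142%) and 0 of 16196 in CA3 nuclei (0%), where 1239 had an unadjusted p under 0.05. The counts of calls for this group were thus low where those of all genes were low. The median log2 fold change of ribosomal protein genes was -0.50 in dorsal-type, -0.44 in ventral-type, -0.50 in CA1 and -0.38 in CA3 nuclei. Rpl37 had log2 fold changes of -0.99, -0.91, -0.82 and -0.65 in that order, and no ribosomal protein gene passed the tests of a difference between dorsal-type nuclei and another class that are given below.

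The lower genes of this group were abundant in free RNA. All 37 lower genes of the ribosomal, oxidative phosphorylation and mitochondrial groups were over 2-fold higher in barcodes of 10 to 100 UMIs than in the members, against 27.8% of all genes. Messages of ribosomal proteins were 0.166% and 0.179% of the members' UMIs in the Control and 0.116% and 0.120% in the Kat6a-cKO libraries. The share of free RNA, estimated from markers of non-neuronal cells, was 9.27% and 8.90% in the Control and 5.30% and 6.09% in the Kat6a-cKO libraries. The estimate depends on its markers. Slc4a4 and Tnr, which are among them, were abundant in the members. The microglia, endothelial and choroid plexus lists alone would give far lower shares, and on each of them the groups would overlap. The microglia list had 14.8 and 14 CPM in the Control and 14.4 and 8.59 CPM in the Kat6a-cKO members. In barcodes of 10 to 100 UMIs it had 1961, 1403, 1540 and 1827 CPM in the same order. The subtraction used here thus took out far more than those lists would. In ventral-type nuclei the estimate was 8.72% and 10.02% against 4.81% and 4.45%. The groups overlapped in CA1 (4.44% and 3.38% against 4.71% and 2.82%) and CA3 nuclei (6.37% and 5.98% against 7.75% and 5.05%). The 49 listed ribosomal protein genes summed to 1158 to 1794 CPM in the members and 17230 to 22744 CPM in barcodes of 10 to 100 UMIs. At the members' free RNA shares the subtraction took most of their counts. Values after it rest on the remainder and cannot decide whether these genes fell. After the subtraction 58 of the 82 ribosomal protein genes could be tested, none was called by edgeR and their median log2 fold change was 0.05. An unadjusted p under 0.05 was left for 13 of the 58, against 6.5% of all genes tested after the subtraction. Single genes went different ways. Rps21 (-0.81, adjusted p = 0.939), Rpl34 (-0.89, adjusted p = 0.957) and Rpl30 (-0.92, adjusted p = 0.528) had log2 fold changes about as large as before, whereas Rplp1 (0.09) and Rpl23 (0.59) turned. Free RNA is RNA released from broken cells that enters every droplet. Its part in the falls was not tested beyond this subtraction.

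**Figure D3:**
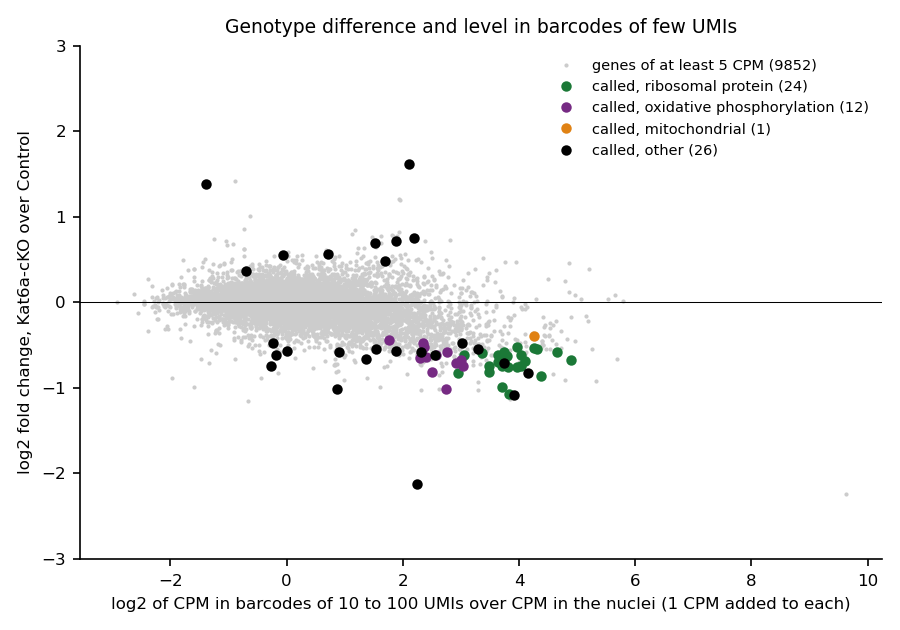
Log2 fold change between the genotypes in dorsal-type nuclei (y axis) against the log2 ratio of a gene's level in barcodes of 10 to 100 UMIs to its level in the members (x axis, 1 CPM added to each). Grey points are the 9852 genes of at least 5 CPM and coloured points the called genes of each group. All called ribosomal, oxidative phosphorylation and mitochondrial genes lie to the right, where RNA is more abundant in barcodes of few UMIs.

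Genes of oxidative phosphorylation, the mitochondrial chain that makes ATP, were the next group. By name, 12 of 100 tested fell, against 0.386% of all genes, none rose, and the median log2 fold change was -0.35. Cox17, a copper chaperone of complex IV, had 12.6 and 13.1 CPM in the Control and 5.69 and 6.92 CPM in the Kat6a-cKO libraries (log2 fold change -1.01, SE 0.18, adjusted p = 0.0356). Cox5b, a subunit of complex IV, had 29.4 and 31.1 CPM in the Control and 17.6 and 16.4 CPM in the Kat6a-cKO libraries (-0.81, SE 0.12). After subtraction of free RNA none of the 100 genes passed in edgeR, 19 had an unadjusted p under 0.05 against 6.5% of all genes, 77 had a negative sign and the median was -0.18. Cox17 then had -1.23 (adjusted p = 0.427) and Cox5b -0.83 (adjusted p = 0.424). Of the abundant cytoplasmic transcripts, 4 of 29 fell, against the same 0.386%, with a list median of -0.52. Tmsb4x, an actin-binding peptide gene, had 408 and 511 CPM in the Control and 306 and 316 CPM in the Kat6a-cKO libraries. Cox6c (-0.44) and Cox8a (-0.58), of complex IV, were also among them. None of the 13 listed mitochondrial genes passed in edgeR, nor did any of 6 in DESeq2. In edgeR 7 had an unadjusted p under 0.05 against 9.53% of all genes, and the median was -0.29. Of all 29 mitochondrial genes tested, 15 had a negative sign, 1 was called lower and the median was -0.06. All 29 were over 2-fold higher in the barcodes of 10 to 100 UMIs. mt-Cytb, the highest of the 13, had 86.2 and 116 CPM in the Control and 76.7 and 80.5 CPM in the Kat6a-cKO libraries.

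Outside those groups 17 genes fell, and 11 of them were also over 2-fold higher in the barcodes of 10 to 100 UMIs. The most abundant of the 11 was CT010467.1, annotated as ribosomal RNA, with means of 3173 CPM in the members and 25800 CPM in those barcodes. Its log2 fold change was -0.48 (SE 0.06, adjusted p = 0.0116). After subtraction of free RNA it was -0.05 (adjusted p = 0.991), a value that rests on what the subtraction left. Cnp and Mal, both known from myelin, were among those 11. Cnp had 14.5 and 13.4 CPM in the Control and 6.94 and 6.09 CPM in the Kat6a-cKO libraries, and 161 to 172 CPM in the low barcodes. Mal had 19.5 and 20.0 against 11.3 and 10.6 CPM. None of the 5 oligodendrocyte markers passed in edgeR, where 3 had an unadjusted p under 0.05, against 9.53% of all genes. DESeq2 called 1 of them.

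Jun was the only called immediate early gene of 30 tested, against 0.458% of all genes called. It stood at 33.6 and 38.1 CPM in the Control and 22.9 and 20.2 CPM in the Kat6a-cKO libraries (log2 fold change -0.71, SE 0.12, adjusted p = 0.0327). The groups did not overlap, as in 39.3% of all genes. A UMI of Jun was seen in 32.3% and 33.4% of Control and 20.9% and 19.6% of Kat6a-cKO members. Its level in barcodes of 10 to 100 UMIs was 294 to 499 CPM, and after subtraction of free RNA its log2 fold change was 0.06 (adjusted p = 0.996). The subtraction took most of the counts of Jun, so that value rests on the remainder. The list's median was 0.10, and 19 of its 30 tested members had a positive sign. The Jun promoter is shown with TGACATCA, letters known from an AP-1 element of this gene, in capitals, over the same stretch as above.
Jun (chr4:95052203-95052292, minus strand): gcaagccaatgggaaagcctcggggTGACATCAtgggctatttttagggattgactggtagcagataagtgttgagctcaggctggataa

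TGACATCA was present on either strand in 3.62% of all windows, in 1.98% of the windows of the genes tested and in 16% of the 25 windows of the lower genes other than ribosomal, 4 windows in all. These windows belong to 3 of 20 genes, and Jun, for which the letters were chosen, is one of them. The share is thus partly set by that choice and carries no test. Several genes fell that are not richer in the barcodes of few UMIs. Igfbp5, a binding protein of insulin-like growth factors, had 66.0 and 63.7 CPM in the Control and 33.3 and 43.4 CPM in the Kat6a-cKO libraries (log2 fold change -0.75, SE 0.12, adjusted p = 0.0232), and 39.5 to 44.6 CPM in the low barcodes. Zbtb18, a transcriptional repressor of neuronal development, had 122 CPM in both Control libraries and 84.8 and 88.6 CPM in Kat6a-cKO (-0.47, SE 0.08, adjusted p = 0.0249). These 2 genes were chosen after their values were seen. Kcna1, a voltage-gated potassium channel gene, had 36.2 and 36.5 against 22.1 and 24.9 CPM (-0.62, SE 0.11, adjusted p = 0.0417). It was the only call among 44 excitability genes in edgeR, against 0.458% of all genes called.

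These falls were spread over many nuclei. A UMI of Kcna1 was seen in 34.7% and 34.1% of Control and 21.3% and 24.9% of Kat6a-cKO members, and a UMI of Igfbp5 in 46.0% and 42.9% against 27.7% and 35.2%. For Zbtb18 the shares were 72.2% and 70.8% against 56.3% and 58.8%. After subtraction of free RNA the log2 fold changes were -0.82 for Igfbp5, -0.53 for Zbtb18 and -0.68 for Kcna1, and none passed the threshold (adjusted p = 0.158, 0.135 and 0.163). Without nuclei marked as doublets Igfbp5, Zbtb18, Kcna1 and Jun missed it as well, at adjusted p of 0.0512, 0.0655, 0.0728 and 0.0589. Zbtb18 had log2 fold changes of -0.45 in ventral-type, -0.70 in CA1 and -0.50 in CA3 nuclei of the same libraries, none of which passed. In the same order Igfbp5 had -0.56, -0.56 and -0.80, Kcna1 -0.39, -0.25 and -0.25 and Jun -0.49, -0.07 and 0.04. None of those passed either.

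Lnx2, a ubiquitin ligase gene, had 16.6 and 16.2 CPM in the Control and 8.28 and 7.76 CPM in the Kat6a-cKO libraries (log2 fold change -1.01, SE 0.16, adjusted p = 0.0232). A UMI was seen in 16.4% and 15% of Control and 7.8% and 7.1% of Kat6a-cKO members. It passed without marked doublets (-1.02, adjusted p = 0.0431) and missed the threshold after subtraction of free RNA (-1.08, adjusted p = 0.142). Pcp4, a small neuronal protein gene, had 64.5 and 79.8 against 44.4 and 45.2 CPM (-0.66, SE 0.11, adjusted p = 0.0249). It was the only call among 12 tested genes of the dorsal and ventral list, against 0.458% of all genes called. Its level in the low barcodes was 116 to 188 CPM. After subtraction of free RNA the log2 fold change was -0.73 (adjusted p = 0.362). In ventral-type, CA1 and CA3 nuclei Pcp4 had -0.65, -0.67 and -0.41 and Lnx2 had -0.61, 0.06 and -0.55, none of which passed.

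Reln, the gene of the secreted guidance protein reelin, had the lowest fold change among the called genes, but it rested on a few nuclei. It stood at 8.55 and 10.3 CPM in the Control and 2.28 and 1.91 CPM in the Kat6a-cKO libraries (log2 fold change -2.12, SE 0.24, adjusted p = 0.0061). The Control libraries held 150 and 105 UMIs, of which 86.7% and 92.4% lay in the 10 nuclei richest in them, and 1 nucleus held 56 and 46. In Kat6a-cKO no member had more than 2 UMIs. The share of members with a UMI was 2.2%, 2.1%, 2.4% and 2.1% in the 4 libraries. Without nuclei marked as doublets the log2 fold change was -1.38 (adjusted p = 0.544), and with the rule applied to nuclei thinned to 5000 UMIs it turned to 0.29.

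**Figure D4:**
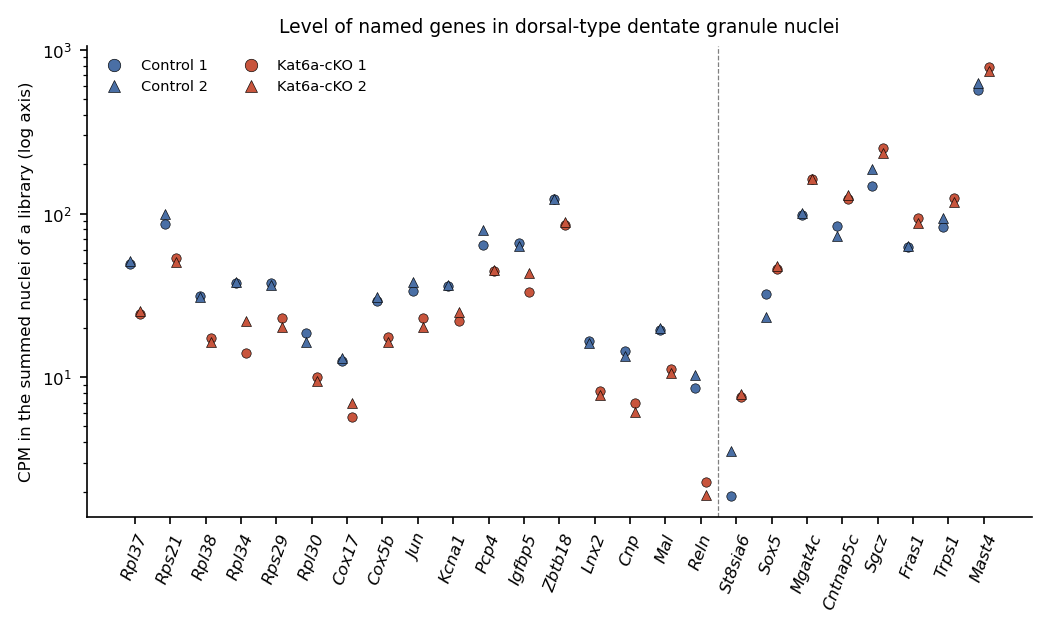
Level in CPM (y axis, log scale) of the named genes in the summed dorsal-type nuclei of each library. Blue symbols are Control and red symbols Kat6a-cKO, with circles for the first and triangles for the second library, lower genes left and higher genes right of the dashed line. The groups do not overlap for any gene shown. This was a condition for choosing most of them, and it held for 39.3% of all genes. The Kat6a-cKO libraries of Reln lie at 2.28 and 1.91 CPM against 8.55 and 10.3 CPM.

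Of the higher genes, 6 of 10 were over 2-fold higher in the barcodes of 10 to 100 UMIs. Mgat4c, a glycosyltransferase-like gene, had the smallest adjusted p of them. It stood at 97.5 and 101 CPM in Control and 162 CPM in both Kat6a-cKO libraries (log2 fold change 0.72, SE 0.07, adjusted p = 0.00369). Between 43.4% and 71.4% of its UMIs in a library lay in 10 nuclei, and its level in CA3 nuclei was 2687 to 3078 CPM. Without nuclei marked as doublets its log2 fold change was 0.07 (adjusted p = 0.9), and without members rich in CA3 markers 0.56 (adjusted p = 0.327). It was the 1 gene called after subtraction of free RNA (1.13, adjusted p = 0.0251). Its mean level in the low barcodes was 483 CPM, and the subtraction used larger free RNA shares in Control. This widens a rise in a gene so abundant there, so the call is partly set by the subtraction.

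St8sia6, Sox5 and Cntnap5c were also abundant in CA3 nuclei. St8sia6, a sialyltransferase gene, had 1.88 and 3.54 CPM in the Control and 7.56 and 7.88 CPM in the Kat6a-cKO libraries (log2 fold change 1.61, SE 0.28, adjusted p = 0.0356), with 80.1 to 94.5 CPM in CA3. In 3 of the 4 libraries 69.7% to 75.3% of its UMIs lay in 10 nuclei, and in the first Control library 48.5%. Without marked doublets it fell short at 0.96 (adjusted p = 0.471). Sox5, a transcription factor gene, had 32.1 and 23.4 CPM against 45.7 and 47.7 CPM (0.75, SE 0.14, adjusted p = 0.0465), and Cntnap5c, a contactin-associated protein gene, 83.7 and 73.3 against 122 and 130 CPM (0.69, SE 0.09, adjusted p = 0.0124). Without marked doublets Sox5 had 0.47 (adjusted p = 0.266) and Cntnap5c 0.59 (adjusted p = 0.185). Their levels in CA3 nuclei were 337 to 392 CPM and 1041 to 1242 CPM. The 10 richest nuclei of a library held 37.3% to 51.2% of the UMIs of Sox5 and 34.6% to 49.1% of those of Cntnap5c.

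Without members rich in CA3 markers the 3 genes missed the threshold with unequal changes in size. St8sia6 went from 1.61 to 0.61 (adjusted p = 0.624) and Cntnap5c from 0.69 to 0.42 (adjusted p = 0.138). Sox5 stayed near its value, at 0.70 against 0.75 (adjusted p = 0.139), and it passed with the rule applied to thinned nuclei (0.96, adjusted p = 0.0227).

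Trps1, a zinc finger repressor gene, had 82.6 and 93.3 CPM in the Control and 125 and 117 CPM in the Kat6a-cKO libraries (0.48, SE 0.08, adjusted p = 0.0359). It is 1 of the 6 CA3 markers and stood at 1663 to 2061 CPM in CA3 nuclei. Without marked doublets its log2 fold change was 0.06 (adjusted p = 0.936). Without members of over 20 UMIs of those markers, of which it is one, its log2 fold change turned to -0.11.

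The UMIs of Mast4, Fras1 and Sgcz, also called higher, were spread over a wider set of nuclei. Mast4, a kinase gene, had 572 and 629 CPM in the Control and 787 and 745 CPM in the Kat6a-cKO libraries (0.37, SE 0.07, adjusted p = 0.0464), and 94.5% to 96.2% of the members of a library had a UMI of it. Fras1, an extracellular matrix gene, had 62.8 and 63.3 CPM against 94.0 and 87.5 CPM (0.55, SE 0.09, adjusted p = 0.0247), with 36.8% and 35.7% of Control and 43.2% and 45.7% of Kat6a-cKO members showing a UMI. Sgcz, a sarcoglycan gene, had 147 and 188 CPM against 252 and 234 CPM (0.57, SE 0.10, adjusted p = 0.0356). A UMI of Sgcz was seen in 51.9% and 50.8% of Control and 53.8% and 55.6% of Kat6a-cKO members. The 10 richest nuclei of a library held 20.6% to 26.1% of its UMIs. Without marked doublets the log2 fold changes were 0.38, 0.45 and 0.55 in that order, with adjusted p of 0.0756, 0.0705 and 0.111.

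The functional lists of granule neurons held few calls. Of all 31 lists, which include markers of other cell types and of RNA quality, 25 had no call. With 0.458% of all genes called, a list of this size without a call is near the background, and the counts of unadjusted p under 0.05 below are to be read against 9.53% of all genes. None of 17 tested granule transcription factor genes passed in edgeR, where 4 had an unadjusted p under 0.05. DESeq2 gave an adjusted p for 15 of that list and called none. Zbtb20, which specifies hippocampal identity, was the highest of the list, at 4591 and 4365 CPM in the Control and 4417 and 4359 CPM in the Kat6a-cKO libraries (log2 fold change -0.01, SE 0.06). None of 26 genes of mossy fibres and granule output passed in edgeR, nor did any of 23 in DESeq2. In edgeR 6 had an unadjusted p under 0.05, and the kainate receptor gene Grik2 stood at 2168 and 2231 against 2347 and 2274 CPM (0.09, SE 0.06).

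Wnt signalling, which the study's title names, showed no call in these nuclei in edgeR or DESeq2. DESeq2 gave an adjusted p for only 7 ligand, receptor and R-spondin genes and 18 intracellular and target genes, so the counts below are those of edgeR. None of 23 tested ligand, receptor and R-spondin genes passed, against 0.458% of all genes, 3 had an unadjusted p under 0.05 in edgeR, against 9.53%, and the median log2 fold change was 0.00. None of 30 intracellular and target genes passed, 2 had an unadjusted p under 0.05, and the median was 0.02. The receptor gene Lrp6 had 131 and 129 CPM in the Control and 134 and 144 CPM in the Kat6a-cKO libraries (0.11, SE 0.07), and Znrf3, a membrane ligase gene that R-spondins act on, had a log2 fold change of -0.06 (SE 0.10). Rspo2 was sparse, at 8.55 and 6.68 CPM in the Control and 10.7 and 8.12 CPM in the Kat6a-cKO libraries (0.30, SE 0.21, adjusted p = 0.721), and 38.7% to 66.2% of its UMIs lay in 10 nuclei of a library. Its level in CA3 nuclei was 43.5 to 82.3 CPM.

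The lists of receptors held no edgeR call either. None of 12 GABA-A receptor subunits and none of 28 glutamate receptor genes passed, with medians of 0.02 and 0.00, and 2 and 5 of them had an unadjusted p under 0.05, against 9.53% of all genes. DESeq2, which gave an adjusted p for 8 and 23 of them, called 1, the GABA-A subunit gene Gabrg3. Grin2a, an NMDA receptor subunit gene, had 3686 and 3559 CPM in the Control and 3471 and 3530 CPM in the Kat6a-cKO libraries (-0.03, SE 0.06). None of 16 genes of the corticoid list passed in edgeR, nor did any of 8 in DESeq2. In edgeR 2 had an unadjusted p under 0.05, and the mineralocorticoid receptor gene Nr3c2 had 1335 and 1100 against 1190 and 1027 CPM (-0.12, SE 0.10). Kat6b, the paralog of Kat6a, had 340 and 316 against 341 and 321 CPM (0.03, SE 0.08). No gene of the 13 tested around the KAT6A complex passed in edgeR or had an unadjusted p under 0.05 there. DESeq2 gave an adjusted p for 9 of them and called none. The chaperone gene Hsp90aa1 had 47.8 and 62.6 against 29.1 and 38.2 CPM (-0.69, SE 0.14, adjusted p = 0.0651) and was called by DESeq2.

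Whether the genotype effect in dorsal-type nuclei differed from that of other classes was tested as an interaction in a model with the library as a block. Against ventral-type nuclei 12 of 14591 genes passed (0.0822%), with 9 more positive (0.0617%) and 3 more negative in dorsal-type nuclei (0.0206%). Against CA1 nuclei 20 of 14928 passed (0.134%), with 8 more positive (0.0536%) and 12 more negative (0.0804%). Against CA3 nuclei 13 of 16702 passed (0.0778%), with 8 more positive (0.0479%) and 5 more negative (0.0299%). These counts rose when a library was left out. Without the first and second Control and the first and second Kat6a-cKO library, they were 54, 68, 31 and 26 against ventral-type, 32, 26, 60 and 135 against CA1 and 21, 24, 85 and 139 against CA3 nuclei. They were mostly fewer under alternatives added after seeing the data. Without nuclei marked as doublets in either class 9, 8 and 0 genes passed against ventral-type, CA1 and CA3 nuclei by edgeR, and in the last of these 806 had an unadjusted p under 0.05. After subtraction of free RNA from both classes 30, 2 and 3 passed, with the rule on thinned nuclei 13, 3 and 18, and without members rich in CA3 markers 10, 14 and 8. On thinned nuclei the ventral-type class was set anew, at a minimum of 2 ventral UMIs, and the CA1 and CA3 classes were left unchanged.

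Sox5 had a log2 fold change of 0.75 in dorsal-type and -0.13 in ventral-type nuclei, a difference of 0.92 (SE 0.13, adjusted p = 0.00143). In the ventral-type nuclei its level was 58.8 and 32.8 CPM in the Control and 43.9 and 36.8 CPM in the Kat6a-cKO libraries. The first Control library was thus the highest of those 4. Without marked doublets the difference was 0.88 and missed the threshold (adjusted p = 0.118), and it passed in the other 9 alternatives (adjusted p up to 0.00801).

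Tenm3, a teneurin adhesion gene, had a difference of the opposite sign. It stood at 137 and 148 CPM in the dorsal-type nuclei of Control and 130 and 115 CPM in those of Kat6a-cKO, and at 91.6 and 117 against 127 and 147 CPM in ventral-type nuclei. The difference of the log2 fold changes was -0.61 (SE 0.09, adjusted p = 0.00264), while neither class passed on its own (-0.19 and 0.41). With the rule on thinned nuclei it was -0.28 (adjusted p = 0.98). Reln differed by -1.62 against ventral-type (adjusted p = 0.0275) and by -2.61 against CA1 nuclei (adjusted p = 0.00736), and the first of these was lost without the first Kat6a-cKO library (-1.13, adjusted p = 0.71). Without marked doublets the differences of Reln were -0.33 (adjusted p = 1) and -1.72 (adjusted p = 0.874), and on thinned nuclei 2.0 and -0.09. Lnx2 differed by -1.05 against CA1 nuclei, where its log2 fold change was 0.06, and missed the threshold without the second Control (-1.01, adjusted p = 0.0883) or the first Kat6a-cKO library (-0.99, adjusted p = 0.0549) and without marked doublets (-1.06, adjusted p = 0.11).

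Mkx and Gpc3 differed from another class with fold changes near 0 in dorsal-type nuclei. Neither passed on its own in that other class, with 1.15 for Mkx in CA1 (adjusted p = 0.119) and 1.34 for Gpc3 in CA3 nuclei (adjusted p = 0.139). Mkx, a homeobox gene, stood at 336 and 296 CPM in the dorsal-type nuclei of Control and 287 and 315 CPM in those of Kat6a-cKO (log2 fold change -0.05), and at 16.8 and 12.3 against 28.5 and 35.4 CPM in CA1 nuclei, a difference of -1.17 (SE 0.12, adjusted p = 0.00106). This difference passed in all 10 alternatives, which gave -1.42 to -1.07. Gpc3, a glypican gene, had log2 fold changes of -0.01 in dorsal-type and 1.34 in CA3 nuclei, a difference of -1.37 (adjusted p = 0.0327). It missed the threshold without the first (-1.29, adjusted p = 0.104) or the second Control library (-1.46, adjusted p = 0.0569). Rspo2 had 0.30 in dorsal-type and -0.60 in CA3 nuclei, a difference of 0.90 (SE 0.15, adjusted p = 0.0416), and neither passed on its own. It missed the threshold without the first (0.91, adjusted p = 0.157) or the second Control library (0.89, adjusted p = 0.0756). With a minimum of 10 CPM both Gpc3 and Rspo2 had an adjusted p of 0.0748. Without marked doublets Gpc3 had -1.37 (adjusted p = 0.26) and Rspo2 0.64 (adjusted p = 0.895), and without members rich in CA3 markers Rspo2 had 0.49 (adjusted p = 0.915).

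**Figure D5:**
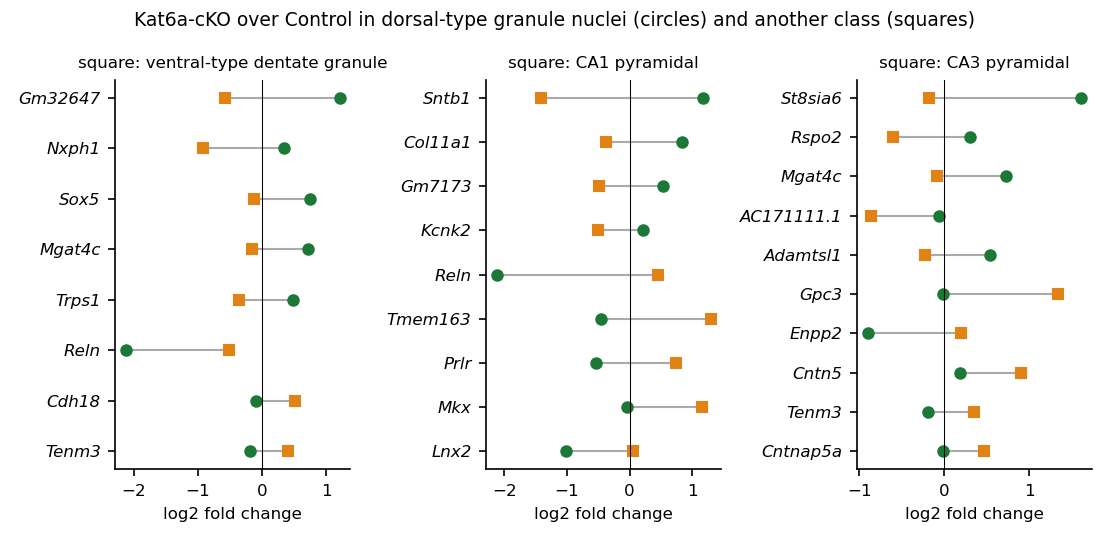
Log2 fold change of Kat6a-cKO over Control (x axis) in dorsal-type dentate granule nuclei (circles) and in ventral-type granule, CA1 or CA3 nuclei (squares) for named genes (y axis) whose difference between the classes passed at an adjusted p under 0.05. Reln lies at -2.12 in dorsal-type nuclei and right of that in both other classes shown, and for Mkx and Gpc3 the square is the one far from 0. Neither of those squares passed the threshold on its own.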

How the data were processed

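Each of the 4 libraries has a matrix of raw counts, whole UMI counts per gene and barcode for all barcodes, as deposited by the authors. The submitters' processing notes name Seurat 4.0.1 and mm10, with no role given; the aligner and annotation are not given in the sources used here. Symbols came from Ensembl IDs (55154 of 55422 matched) and positions from GENCODE M21 (GRCm38). The members' counts were summed per library. edgeR 4.0.16 (quasi-likelihood test, TMM, filterByExpr, Benjamini-Hochberg adjustment over all genes tested, threshold 0.05) compared genotypes, and an interaction model with the library as a block compared genotype effects between classes. Fold changes come from these fits. Levels are CPM of the summed counts. CA1 and CA3 nuclei had at least 4 of 6 own markers, at most 2 of the other's, at most 1 (CA1) or 2 (CA3) granule markers and at most 1 Gad UMI; these limits were set after seeing the data. Free RNA was estimated as the median, over markers of 6 non-neuronal lists, of the level in members over that in barcodes of 10 to 100 UMIs. Doublets were called with Scrublet (scanpy 1.11.5, expected rate 0.06). On simulated counts of 13983 genes, 110 of 200 genes changed by 0.5 (log2) and 185 of 200 changed by 1 were called, with 3 and 8 false calls.

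The members and gene lists were chosen with earlier results of these data known. Named genes were the rule's genes, Kat6a, cre and Neurod6; up to 12 called genes per direction with the largest change, at least 5 CPM and groups that do not overlap; called list members, up to 6 per list, or the 3 highest; the 10 largest dorsal to ventral level ratios in each direction; and the 5 largest interactions in each direction. The rule's genes were left out of the last. Not every gene so named is printed for lists without calls. Some genes the rule names are not reported here. Alternatives were DESeq2 1.42.0, other filters and marker limits, thinned counts and leaving out each library.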

Additional observations from a re-analysis of the deposited data

Results flagged for a closer look

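The genotype effect differed between dorsal-type granule nuclei and another class, at an adjusted p under 0.05 in the interaction test, for 12 genes against ventral-type, 20 against CA1 and 13 against CA3 nuclei. The 28 given here are up to 5 with the largest difference in each direction and class. Values are the log2 fold change in dorsal-type nuclei minus that in the other class. Against ventral-type granule nuclei the difference was 1.79 for Gm32647, 1.22 for Nxph1, 0.92 for Sox5, 0.88 for Mgat4c and 0.87 for Trps1, and it was -1.62 for Reln, -0.62 for Cdh18 and -0.61 for Tenm3. Gm32647 and Trps1 were highest in CA3 nuclei, with Gm32647 at 1010 to 1288 CPM there against 16.4 to 60.6 CPM in dorsal-type nuclei. Nxph1 is an inhibitory neuron marker, and 68.6% to 87.2% of its UMIs in a library lay in 10 members. It missed the threshold without the second Control (adjusted p = 0.0502) or the second Kat6a-cKO library (adjusted p = 0.124), and Reln without the first Kat6a-cKO library (adjusted p = 0.71). Without nuclei marked as doublets Mgat4c had 0.02, Trps1 0.25 and Reln -0.33 (adjusted p = 1 each), Sox5 missed the threshold at 0.88 (adjusted p = 0.118) and Gm32647 turned to -0.25. With the rule on thinned nuclei Reln turned to 2.0, Cdh18 to 0.32 and Nxph1 to -0.36, and Tenm3 missed the threshold at -0.28 (adjusted p = 0.98). In that setting ventral-type nuclei needed at least 2 ventral UMIs in place of 5, so the class compared changed too. None of these 8 genes passed in all alternatives.

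Against CA1 nuclei the difference was 4.82 for 1700069L16Rik, 2.64 for Sntb1, 1.23 for Col11a1, 1.06 for Gm7173 and 0.74 for Kcnk2, and it was -2.61 for Reln, -1.68 for Tmem163, -1.29 for Prlr, -1.17 for Mkx and -1.05 for Lnx2. 1700069L16Rik had 8, 5, 5 and 22 UMIs in the members of the 4 libraries and 9, 25, 1 and 2 in CA1 nuclei, so its size rests on few UMIs. Sntb1 had 26, 18, 31 and 33 UMIs in the members. Kcnk2 encodes a potassium channel and had log2 fold changes of 0.21 in dorsal-type and -0.50 in CA1 nuclei. Of these 10 genes only Mkx passed in all 10 alternatives. Reln missed the threshold without marked doublets (-1.72, adjusted p = 0.874), on thinned nuclei (-0.09, adjusted p = 0.996) and after subtraction of free RNA (-5.10, adjusted p = 0.0928). Without the first Control library Sntb1 (adjusted p = 0.105), Gm7173 (0.178), Tmem163 (0.0651) and Prlr (0.0892) missed the threshold. Without the second Control library 1700069L16Rik (0.276), Col11a1 (0.0527), Kcnk2 (0.0742), Prlr (0.0527) and Lnx2 (0.0883) missed it. Without the first Kat6a-cKO library Col11a1 (0.0549), Prlr (0.134) and Lnx2 (0.0549) did, and without the second 1700069L16Rik (0.461). Gm7173 also missed it with no composition factor (0.0521) and with a minimum of 10 CPM (0.0931).

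Against CA3 nuclei the difference was 1.80 for St8sia6, 0.90 for Rspo2, 0.79 for Mgat4c, 0.77 for AC171111.1 and 0.77 for Adamtsl1, and it was -1.37 for Gpc3, -1.12 for Enpp2, -0.73 for Cntn5, -0.56 for Tenm3 and -0.51 for Cntnap5a. Enpp2, a choroid plexus marker, had 15.7 and 26.1 CPM in the Control members against 10.9 and 10.6 CPM in those of Kat6a-cKO, and 1 nucleus of the second Control library held 116 of its 266 UMIs. None of these 10 genes passed in all alternatives, and without nuclei marked as doublets all 10 missed the threshold. Mgat4c then had 0.15 (adjusted p = 0.97), and without members rich in CA3 markers 0.63 (adjusted p = 0.0751). With a minimum of 10 CPM the genes other than Mgat4c missed it, at adjusted p of 0.0676 to 0.158. Without the first Control library Rspo2 (adjusted p = 0.157), AC171111.1 (0.117), Adamtsl1 (0.258), Gpc3 (0.104) and Cntn5 (0.102) missed it. Without the second Control library Rspo2 (0.0756), AC171111.1 (0.0506), Gpc3 (0.0569), Enpp2 (0.115) and Tenm3 (0.0568) did.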

How the results depend on the processing

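Calls of the genotype effect, 64 as reported, were 39 with no composition factor, 372 with no filter on low counts, 9 with at least 5 of the 6 markers, 18 without Scrublet doublets, 1 with free RNA subtracted and, added after seeing the data, 6 without members of over 20 UMIs of the CA3 markers. With the replicate number as a block 6 genes were called; the deviations of same-numbered libraries correlated at 0.172 over 8015 genes, and with 2 pairs the numbers name libraries only. Leaving out 1 library, where the lone library is assumed to vary like the other group, gave 102 to 184 calls. The interaction calls then ran from 26 to 68 against ventral-type (12 as reported), 26 to 135 against CA1 (20) and 21 to 139 against CA3 nuclei (13). A minimum of 10 CPM left 2 calls against CA3. Among alternatives added after seeing the data, removal of marked doublets left 8 against CA1 and 0 against CA3 by edgeR (806 with an unadjusted p under 0.05), subtraction of free RNA gave 30 against ventral-type, 2 against CA1 and 3 against CA3, the rule on thinned nuclei 3 against CA1, and removal of CA3-rich members 8 against CA3. Differences from ventral-type turned for Gm32647 (-0.25) without doublets and for Nxph1 (-0.36), Reln (2.0) and Cdh18 (0.32) on thinned nuclei. The difference of the share ran from -7.17 to -1.32 percentage points and that of the ratio from -1.94 to 0.069 over the left-out libraries. Subtraction of free RNA turned the direction of Rplp1 (0.09), Rpl23 (0.59), Rps19 (0.39), Rpl37a (8.50), Rpl35a (5.11), Fau (0.42), Tmsb4x (0.24) and Jun (0.06). It took most of the counts of these genes, so their values after it rest on the remainder. Reln turned to 0.29 with the rule on nuclei thinned to 5000 UMIs and Trps1 to -0.11 without CA3-rich members. In all, 753 of 1220 values of single genes in the genotype comparison and 166 of 274 in the interactions kept their direction and side of the threshold, 453 and 104 lost the threshold and 4 passed it only in the alternative. The causes were not tested. Of the alternatives, DESeq2 called 75 genes, 51 of them among the 56 reported calls it tested. Depth limits the sparse genes most, since 1 CPM in the second Kat6a-cKO library is under 10 UMIs.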
